A study of Mus musculus with 6 samples.

Results

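Elastin, the fibrillins, the fibulins and the microfibril-associated proteins are the building blocks of the elastic fibres of the arterial wall. Their 10 genes, Eln, Fbn1, Fbn2, Mfap2, Mfap5, Mfap4, Fbln5, Efemp2, Efemp1 and Fbln1, were taken by symbol from a table of 54532 genes, and each matched 1 row. The table holds read counts from RNA sequencing of mouse abdominal aorta 7 days after an aneurysm, a bulge in the vessel wall, was induced (day 7). Olfr2 knockout mice (KO, 3 libraries) were set against wild type mice (WT, 3 libraries), and all 6 had the aneurysm induced, so there is no aorta without aneurysm among them. Olfr2 belongs to the olfactory receptors, which couple to G proteins. Where 3 values are given for a genotype, they are those of replicates 1, 2 and 3. The labels do not give the strain, sex or age, the tissues in which the allele is deleted, the method of induction, or whether a library came from 1 animal or a pool, so p-values measure only the spread between these libraries, which may be technical. The comparison asks which transcripts of the aneurysm differ where Olfr2 is missing.

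An elastic fibre has a core of crosslinked elastin and a sheath of microfibrils. Smooth muscle cells and fibroblasts secrete tropoelastin, the soluble monomer, which gathers on microfibrils made of fibrillin and is crosslinked by lysyl oxidases. Short fibulins guide that step by holding tropoelastin, the crosslinking enzymes and the microfibril together. In the aorta these fibres form the lamellae that let the wall stretch and recoil. Loss of elastic lamellae is a hallmark of abdominal aortic aneurysm, and in humans variants of FBN1 cause Marfan syndrome, with aneurysm of the thoracic aorta.

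The libraries held 17248918 to 21872027 gene counts. Olfr2 had 0 counts in all 6, KO and WT alike, which allows 0.137 to 0.174 CPM (counts scaled to a common library size) per library, so it does not check the genotype labels. Markers of contractile smooth muscle, fibroblasts, endothelium and macrophages were present in all 6 libraries. Skeletal muscle markers summed to 983 CPM in KO replicate 3 and to at most 16 CPM in any other library. White adipocyte markers summed to 350.5 to 515 CPM in KO libraries, and to 345 CPM in WT replicate 3 but 57 and 62.1 CPM in WT replicates 1 and 2. Mitochondrial transcripts made up 5.32, 2.59 and 2.32% of counts in the KO libraries, against 1.84, 1.88 and 1.56% in the WT libraries. In bulk tissue, fewer cells of a type and less RNA per cell cannot be told apart.

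All 10 genes had enough counts to be tested, from 542 counts for Fbn2 in KO replicate 1 to 85686 for Eln in the same library. None of the 10 passed an adjusted p of 0.05 in edgeR's quasi-likelihood test over 16237 genes, where 2 genes (0.0123%) passed. With DESeq2 1 of the 10 passed, Eln, where 2.89% of genes passed, and limma-voom called 0. At an unadjusted p under 0.05 there were 2 of 10, Eln and Fbln5, both higher in KO, where the share of all tested genes was 11.3% (5.23% higher and 6.08% lower in KO). The genotypes were separate in 2 of the 10, with each KO library above the WT range for Eln and below it for Efemp2. Of tested genes 16.8% had no overlap, 7.83% with KO above and 9.01% with KO below. Of the 10 log2 fold changes 4 were above 0 and 6 below, with a median of -0.10, beside a median of 0.01 over all tested genes.

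**Figure D1:**
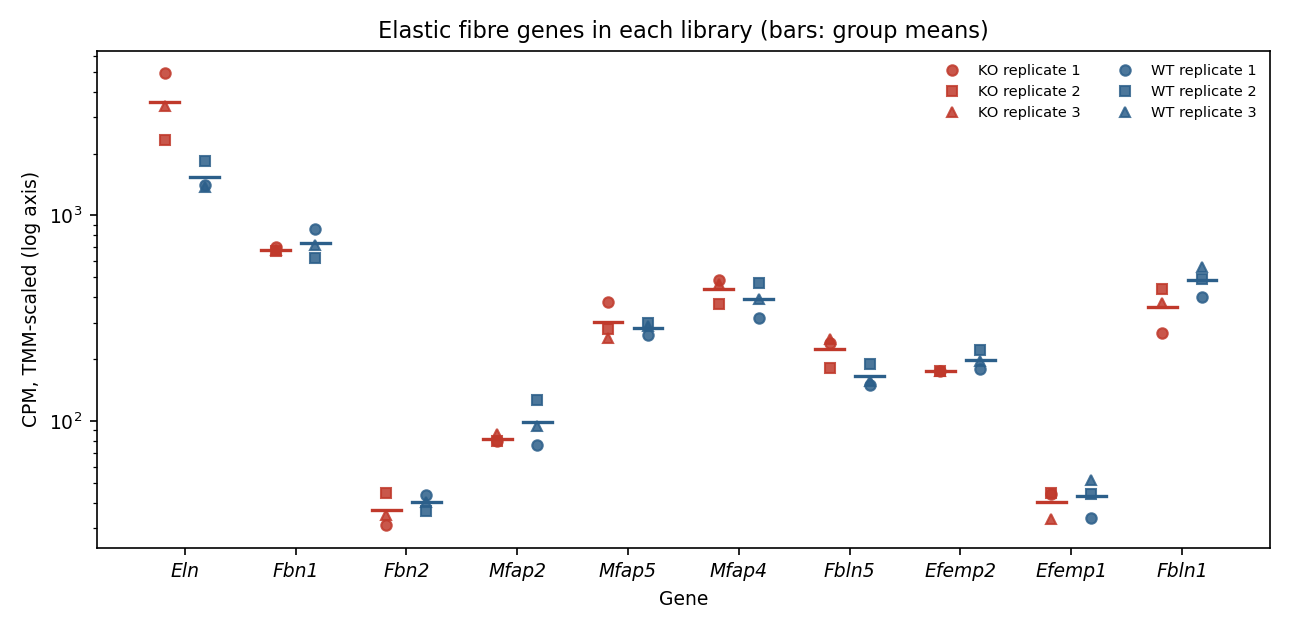
CPM (TMM-scaled counts, log axis) of the 10 elastic fibre genes in each library, KO left and WT right for each gene, with bars at the group means. Eln spanned 2336 to 4916 CPM in KO against 1380 to 1843 CPM in WT, and of the other genes Efemp2 alone had KO libraries that did not overlap the WT libraries.

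Elastin is the core protein, and its gene carried the largest difference among the 10. Eln (ENSMUSG00000029675, chromosome 5, 134702593 to 134747323, minus strand, GRCm38, protein-coding) stood at 4916, 2336 and 3408 CPM in the KO libraries, against 1407, 1843 and 1380 CPM in the WT libraries. Each KO library exceeded each WT library, with KO replicate 1 far above the others and a gap between the lowest KO and the highest WT library that was smaller than the range within KO. The mean was 3553 ± 1296 CPM over the KO libraries and 1543 ± 259 CPM over the WT libraries (SD, n = 3 each), and the coefficient of variation was 36.5% in KO and 16.8% in WT. The log2 fold change was 1.20 (SE 0.27, 95% interval 0.60 to 1.81), which is 2.3-fold with an interval of 1.51 to 3.51 (Benjamini-Hochberg adjusted p = 0.142 in the quasi-likelihood test of edgeR). DESeq2 gave the same log2 fold change with an adjusted p of 8.2e-05. Of all tested genes 1.61% had a log2 fold change at least as high. Without KO replicate 1 it was 0.90 (SE 0.22, adjusted p = 0.313, edgeR). By CPM, Eln ranked 9, 24 and 18 among all genes of the table in the KO libraries, against 46, 37 and 47 in the WT libraries. Those ranks take no account of gene length. Per kilobase of exon, Eln ranked 62, 133 and 90 in the KO libraries, against 231, 207 and 242 in the WT libraries.

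**Figure D2:**
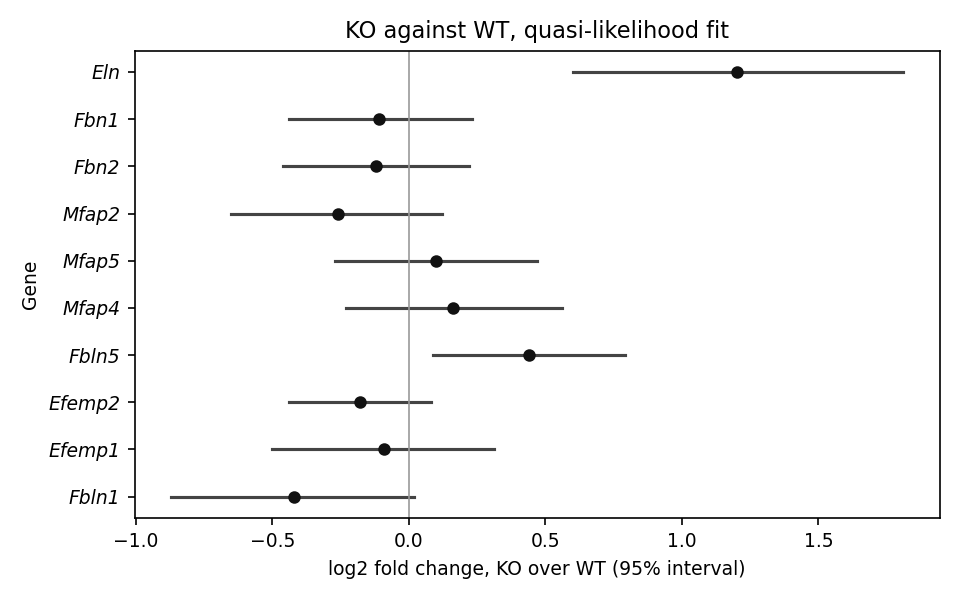
Log2 fold change of KO over WT for each of the 10 genes, with its 95% interval from the quasi-likelihood fit. The intervals of Eln (0.60 to 1.81) and Fbln5 (0.09 to 0.79) lie above 0, the other 8 include 0, and none of the 10 passed after adjustment over all genes.

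The fibrillins form the beaded backbone of the microfibril, Fbn1 throughout life and Fbn2 mainly during development. Fbn1 (chromosome 2, 125300594 to 125507993, minus strand, GRCm38) stood at 701, 669 and 676 CPM in the KO libraries, against 863, 623 and 715 CPM in the WT libraries. The KO libraries sat inside the range of the WT libraries. The log2 fold change was -0.11 (SE 0.15, 95% interval -0.44 to 0.23, adjusted p = 0.873 by edgeR), which is 0.736 to 1.17 times the WT level. Without WT replicate 1 the log2 fold change of Fbn1 was 0.03, so its sign rests on that library. Of its exon bases 20.1% overlap Gm9913, which itself had 4 to 10 counts per library, and reads of overlapping genes cannot be told apart without strand. Fbn2 stood at 31.1, 44.7 and 34.9 CPM in the KO libraries, against 43.5, 36.6 and 40.5 CPM in the WT libraries, and the groups overlapped. Its log2 fold change was -0.12 (SE 0.15, 95% interval -0.46 to 0.22, adjusted p = 0.843 by edgeR).

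Mfap2 and Mfap5 encode small glycoproteins, also called MAGP, that are bound along the fibrillin microfibril. Mfap2 stood at 79.8, 79.7 and 86.8 CPM in the KO libraries, against 76.2, 126 and 94.1 CPM in the WT libraries, with the KO libraries inside the WT range. Mfap5 stood at 380.1, 279 and 253 CPM in the KO libraries, against 262, 300.1 and 289 CPM in the WT libraries, where KO replicate 1 was the highest and KO replicate 3 the lowest of the 6. Their log2 fold changes were -0.26 (95% interval -0.65 to 0.12) for Mfap2 and 0.10 (95% interval -0.27 to 0.47) for Mfap5. Mfap4, an extracellular glycoprotein that binds both tropoelastin and fibrillin, stood at 488, 370.1 and 465 CPM in the KO libraries, against 318, 471 and 393 CPM in the WT libraries. Those groups overlapped, and the log2 fold change was 0.16 (95% interval -0.23 to 0.56). The adjusted p was 0.626 for Mfap2, 0.894 for Mfap5 and 0.811 for Mfap4 (edgeR), and 4.63% of the exon bases of Mfap4 overlap Mapk7. Without KO replicate 1 the value of Mfap5 was -0.09, so its direction rests on that library.

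The fibulins bridge the core and the sheath. Fbln5, which binds tropoelastin and the crosslinking enzyme made from Loxl1 and whose loss in mice leaves the elastic fibres of aorta and skin disordered, lies on chromosome 12 (101746565 to 101819055, minus strand, GRCm38). It stood at 240.0, 181 and 251 CPM in the KO libraries, against 149, 189.7 and 157 CPM in the WT libraries. KO replicates 1 and 3 lay above all WT libraries, while KO replicate 2 lay below WT replicate 2, so the groups overlapped. The mean was 224 ± 37.9 CPM over the KO libraries and 165 ± 21.5 CPM over the WT libraries (SD, n = 3 each), with a log2 fold change of 0.44 (SE 0.16, 95% interval 0.09 to 0.79, adjusted p = 0.323 by edgeR).

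Efemp2 encodes fibulin-4, which brings lysyl oxidase to tropoelastin and without which mice do not form normal elastic fibres. It stood at 175, 176 and 175 CPM in the KO libraries, against 179.6, 221 and 195 CPM in the WT libraries. The KO libraries were nearly equal and lay below the WT libraries by a small margin. The log2 fold change was -0.18 (SE 0.11, 95% interval -0.44 to 0.08, adjusted p = 0.618 by edgeR). Of the exon bases of Efemp2 4.57% overlap Mus81, which itself had 277 to 385 counts per library. Efemp1, which encodes a related short fibulin (fibulin-3), stood at 43.9, 44.4 and 33.3 CPM in the KO libraries, against 33.6, 44.1 and 51.9 CPM in the WT libraries, and the groups overlapped. Its log2 fold change was -0.09 (95% interval -0.50 to 0.31, adjusted p = 0.912 by edgeR). The sign of Efemp1 turned when 1 library was left out, with 0.03 without KO replicate 3 and 0.06 without WT replicate 3.

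Fbln1, a larger fibulin found in elastic fibres and basement membranes, had the lowest log2 fold change of the 10. It stood at 269, 437 and 375 CPM in the KO libraries, against 401, 489 and 560.1 CPM in the WT libraries. KO replicates 1 and 3 lay below all WT libraries and KO replicate 2 lay above WT replicate 1, so the groups overlapped. The mean was 360.5 ± 85.1 CPM over the KO libraries and 484 ± 79.5 CPM over the WT libraries (SD, n = 3 each), with a log2 fold change of -0.42 (SE 0.20, 95% interval -0.87 to 0.02, adjusted p = 0.472 by edgeR). KO replicate 1, with the highest Eln of the 6 libraries, had the lowest Fbln1.

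Promoters from RefSeq on GRCm38.p6 were found for 6 of the 10 genes, and those of Fbln5 and Fbn1 are shown because Fbln5 was the gene with the second largest log2 fold change and Fbn1 stayed inside the WT range. Each runs 5′ to 3′ from 250 bases before the start of transcription to 50 after it, with capitals at each GC box.
Fbln5 (GRCm38.p6, chr12:101819070-101819369, minus strand): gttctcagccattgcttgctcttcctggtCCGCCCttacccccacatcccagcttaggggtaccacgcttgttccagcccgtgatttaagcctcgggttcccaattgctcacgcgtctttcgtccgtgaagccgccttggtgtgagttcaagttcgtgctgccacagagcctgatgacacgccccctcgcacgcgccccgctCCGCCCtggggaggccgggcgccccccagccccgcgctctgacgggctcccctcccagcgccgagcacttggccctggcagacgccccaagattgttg
Fbn1 (GRCm38.p6, chr2:125506389-125506688, minus strand): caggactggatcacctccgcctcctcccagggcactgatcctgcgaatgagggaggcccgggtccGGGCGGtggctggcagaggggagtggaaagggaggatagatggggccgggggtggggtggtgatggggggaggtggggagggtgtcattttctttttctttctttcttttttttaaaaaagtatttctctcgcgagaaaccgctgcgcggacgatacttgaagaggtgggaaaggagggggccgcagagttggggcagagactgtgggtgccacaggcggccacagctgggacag
The GC box (GGGCGG), the TATA box (TATAAA), the E box (CACGTG), the Smad element (GTCTAGAC) and the CArG box, known as the binding sequence of serum response factor in smooth muscle genes, were searched on both strands, with overlapping matches counted. The Fbln5 window shown held 2 GC boxes and the Fbn1 window held 1, and neither held any of the other motifs. RefSeq gives Fbln5 another start, whose window, not shown, held 0 GC boxes. The Fbn1 window lies inside the gene position given above, whose 5′ end is at 125507993, so it is not the window at that end. Of 32851 promoters of this length 35.7% held a GC box, 13.6% the TATA box, 7.15% the E box, 0.213% the Smad element and 1.63% a CArG box.

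Levels of different genes were compared as CPM per kilobase of exon. Over all 6 libraries Eln was the highest at 315 (170.5 to 607), followed by Mfap4 at 217 (165 to 254), Fbln1 at 96.6, Mfap5 at 81.9, Mfap2 at 74.6, Fbn1 at 58.3, Efemp2 at 49.3, Fbln5 at 28.2, Efemp1 at 20.6 and Fbn2 at 2.92 CPM per kilobase. The first place of Eln came from the KO libraries, where it averaged 439 against 229.5 for Mfap4. In the WT libraries Eln averaged 191 and Mfap4 205, with Mfap4 the higher in WT replicates 2 and 3. Eln and Mfap4 overlapped in range, as did each neighbouring pair from Fbln1 down to Efemp2, and Fbln5 overlapped Efemp1. Gaps with no overlap lay between Mfap4 and Fbln1, between Efemp2 and Fbln5, and between Efemp1 and Fbn2. The Eln value depends on the length used, since its exons add up to 8098 bases while its longest transcript has 3853, and with the transcript length Eln stood at 661 (358 to 1276) CPM per kilobase, with no overlap with Mfap4. On that scale Mfap5 (118) stood just above Fbln1 (115), and their ranges overlapped. Efemp2 (70.9) stood above Fbn1 (59.1), also with overlap. Fbln5 (25.6 at the lowest) no longer overlapped Efemp1 (25.5 at the highest). The level of Fbn2 was far below that of Fbn1, with a geometric mean ratio of Fbn2 to Fbn1 of 0.0491 in KO and 0.0506 in WT.

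As a share of the summed level per kilobase of the 10 genes, Eln made up 48.3, 32.9 and 40.1% in the KO libraries, against 23.9, 24.4 and 20.7% in the WT libraries. The WT libraries were alike and the KO libraries were all higher and more spread. With the longest transcript as the length the mean share was 54.6 ± 7.93% over the KO libraries and 34.7 ± 2.57% over the WT libraries (SD, n = 3 each). The summed level of the other 9 genes was 649.8, 589 and 627 CPM per kilobase in the KO libraries, against 553, 706 and 652 in the WT libraries. Those sums overlapped, while the Eln shares did not overlap. The shares restate the Eln values and are no separate result.

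Ratios within a library do not depend on how libraries are scaled, and are given as a description without a test. Their size depends on the gene length used, here that of all exons, while the log2 difference between KO and WT does not. The ratio of Eln to Fbn1, per kilobase, was 10.5, 5.23 and 7.55 in the KO libraries, against 2.44, 4.43 and 2.89 in the WT libraries, and the groups did not overlap. The ratio of Eln to Lox, the gene of the main enzyme that crosslinks elastin, was 3.48, 1.61 and 2.93 in the KO libraries, against 0.988, 1.23 and 1.05 in the WT libraries. The log2 ratio differed between KO and WT means by 1.24 for Eln over Fbn1, 1.23 for Eln over Lox and 0.72 for Eln over Fbln5, without overlap in any of these. These differences follow from the log2 fold changes of Eln (1.20), Fbn1 (-0.11), Lox (-0.08) and Fbln5 (0.44) and are no separate result. The ratio of Eln to Myh11, the smooth muscle myosin heavy chain gene, was 16.5, 11.8 and 11.1 in the KO libraries, against 14.1, 21.1 and 12.1 in the WT libraries, with a log2 difference of -0.25 and overlapping groups. The ratios Fbn2 over Fbn1 (-0.04), Mfap5 over Mfap2 (0.32) and Efemp1 over Efemp2 (0.09) overlapped as well.

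**Figure D3:**
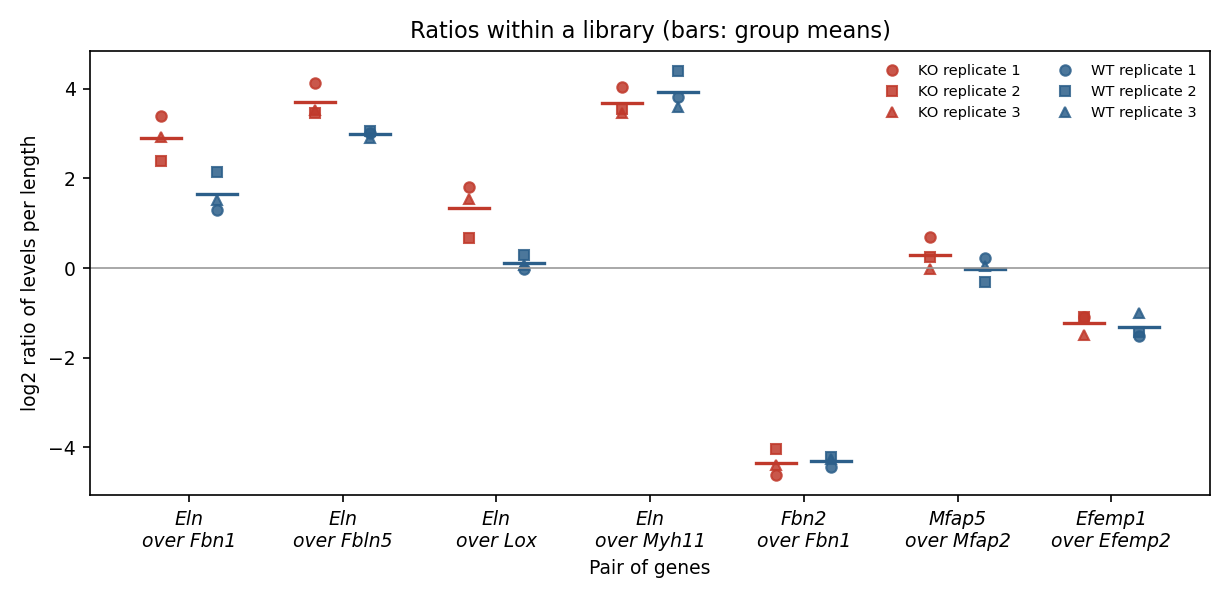
Log2 ratios of levels per kilobase for 7 pairs of genes within each library, KO left and WT right, with bars at the group means. Eln over Fbn1, over Fbln5 and over Lox lie higher in all KO libraries, while Eln over Myh11 and the ratios between the other genes overlap.

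Markers of contractile smooth muscle (6 of 6 detected, none at 0, and all 6 with a log2 fold change above 0) had a sum that moved with Eln across the libraries. Their summed level was 2488, 1581 and 2035 CPM in the KO libraries, against 1039, 1390 and 921 CPM in the WT libraries, which puts all 6 libraries in the same order as Eln. WT replicates 1 and 3 were close in Eln, at 1407 and 1380 CPM, and the share of all tested genes with this order was not counted. Acta2, smooth muscle alpha-actin, makes up most of that sum and has this order, as do Lmod1 and, among the partner genes, Ltbp1, while Myh11, Cnn1, Smtn and Tagln do not. Of Tagln exon bases 67.9% overlap other genes, so its count is uncertain. The ratio of Eln to the sum was 1.71 ± 0.251 over the KO libraries and 1.39 ± 0.0925 over the WT libraries (SD, n = 3 each), and the groups overlapped, with 1.48 in KO replicate 2 and 1.5 in WT replicate 3. Fibroblast markers, 3 of 6 with a log2 fold change above 0, summed to 2098 to 2314 CPM in KO and 2013 to 2278 CPM in WT. Lum and Col14a1 make up most of the fibroblast sum, and other markers in it varied more. Pi16 ran from 67.2 CPM in WT replicate 1 to 156 CPM in WT replicate 3, and Scara5 from 14.5 to 46.8 CPM in the same libraries. All 6 white adipocyte markers had a log2 fold change above 0, and their sums lay higher in all KO libraries than in any WT library. Within WT, replicate 3 had the highest adipocyte sum, while its Eln of 1380 CPM was close to the 1407 CPM of replicate 1. The share of mitochondrial transcripts was also higher in all KO libraries, at 2.32 to 5.32% against 1.56 to 1.88% in WT. That share was highest in KO replicate 1, as was Eln. The part of smooth muscle content, of fat and of mitochondrial transcripts in the difference of Eln was not tested.

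**Figure D4:**
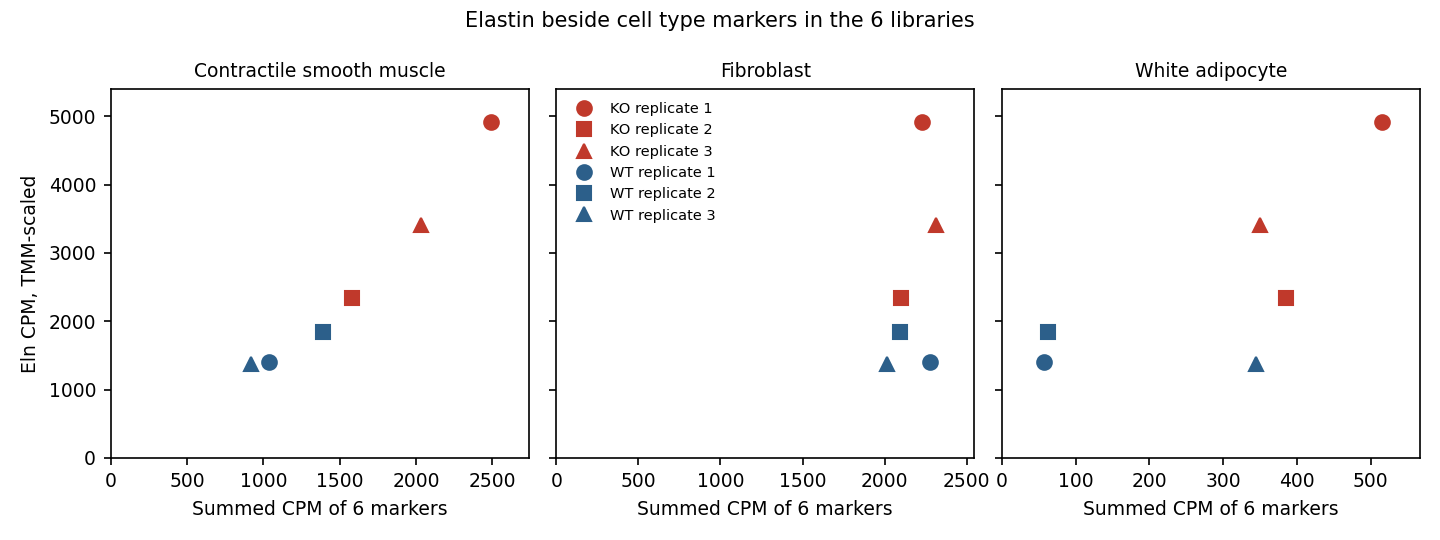
Eln (CPM, y axis) against the summed CPM of 6 markers each of contractile smooth muscle, fibroblasts and white adipocytes (x axes), 1 point per library, KO in red and WT in blue. Along the contractile axis the order of the 6 libraries is that of Eln. Fibroblast sums, made up mostly of Lum and Col14a1, lie close together at 2013 to 2314 CPM. Adipocyte sums lie higher in all KO libraries (350.5 to 515 CPM) than in the WT libraries (57 to 345 CPM). Within WT, replicate 3 has the highest adipocyte sum of 345 CPM. Its Eln of 1380 CPM is close to the 1407 CPM of WT replicate 1.

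Genes with a pattern like that of Eln were sought among 10357 others of at least 10 mean CPM, by the root mean square difference of log2 CPM centred on its mean over the 6 libraries. The 5 nearest were Fhl1 (0.113), Serpini1 (0.129), Mustn1 (0.150), Col4a6 (0.171) and Myl9 (0.175). Fhl1 encodes a LIM domain protein of muscle, Mustn1 a small protein of the musculoskeletal system, Col4a6 a chain of basement membrane collagen, Myl9 the regulatory light chain of smooth muscle myosin, and Serpini1 a serine protease inhibitor. The log2 fold changes of these 5 were 1.08 for Fhl1, 0.99 for Serpini1, 0.93 for Mustn1, 1.02 for Col4a6 and 0.92 for Myl9. The search used KO and WT libraries together, so values near that of Eln follow from the choice and are no separate result. Nearest to Eln among the other 9 elastic fibre genes was Fbln5 (0.418, place 118), then Mfap4 (0.537, place 477), and farthest was Fbln1 (0.965, place 10022). The 5 nearest to Fbn1 were Dhx9 (0.036), Prkca (0.039), Sf3b3 (0.048), Hspa14 (0.049) and Rrp1b (0.049). Among the 10, the closest pairs were Efemp2 with Mfap2 (0.132) and Fbln5 with Mfap4 (0.159). Mfap2 was at place 2055 from Efemp2, and Efemp2 at place 286 from Mfap2. Mfap4 was at place 89 from Fbln5, and Fbln5 at place 733 from Mfap4. Many genes outside the 10 were therefore nearer to each.

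Partner genes of the elastic fibre were taken from 4 lists by known role, with 47 genes of which 46 were tested and Mmp7 was not. None of the 46 passed in edgeR's test over all genes. At an unadjusted p under 0.05 there were 12, of which 8 had a higher and 4 a lower value in KO, beside 11.3% of all tested genes. For 4 of the 46 every KO library was above the WT range, beside 7.83% of tested genes, and for 7 every KO library was below it, beside 9.01%. DESeq2 called 3 of them, Ltbp1, Mfge8 and Mmp2, beside 2.89% of genes with that tool, and limma-voom 0. The median log2 fold change over the partners was -0.02.

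Of 18 genes of assembly and crosslinking, 7 had a log2 fold change above 0 and 11 below. Ltbp1, which holds latent TGF-beta on the microfibril, stood at 162, 96.4 and 121 CPM in the KO libraries, against 68.4, 74.2 and 61.2 CPM in the WT libraries. Its groups did not overlap, and the log2 fold change was 0.89 (SE 0.18, adjusted p = 0.124 by edgeR). Fbln7, which encodes another fibulin, had few counts, with a mean of 8.57 ± 2.98 CPM over the KO libraries and 3.65 ± 2.03 CPM over the WT libraries (SD, n = 3 each) and a log2 fold change of 1.23 with an SE of 0.43. The Fbln7 groups overlapped (adjusted p = 0.317 by edgeR). The crosslinking enzyme genes had values on both sides of 0. Lox had a log2 fold change of -0.08 (95% interval -0.39 to 0.24), Loxl1 of -0.03, Loxl2 of -0.36 (SE 0.13, adjusted p = 0.322 by edgeR), Loxl3 of -0.22 and Loxl4 of 0.27. Loxl2 stood at 143, 165 and 179 CPM in the KO libraries, against 195, 234 and 198 CPM in the WT libraries, with every KO library below every WT library. Fkbp10, a collagen and elastin chaperone of the secretory pathway, had a log2 fold change of -0.31 with an SE of 0.12, also with no overlap. Fbln2, a fibulin that was not among the 10, stood at 640.1 ± 68.9 CPM over the KO libraries and 799 ± 92.4 CPM over the WT libraries (SD, n = 3 each).

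Among 14 genes whose products bind microfibrils or elastin, 6 had a log2 fold change above 0 and 8 below. Mfge8, a glycoprotein of smooth muscle that binds elastic fibres, stood at 387, 317 and 389.9 CPM in the KO libraries, against 174, 285 and 233 CPM in the WT libraries. The KO libraries lay above the WT libraries, with a log2 fold change of 0.66 (standard error 0.18, adjusted p = 0.217 by edgeR). Adamtsl5 (0.53, SE 0.23) and Adamts10 (0.24, SE 0.10), whose products bind fibrillin, also had no overlap with KO above WT, with an adjusted p of 0.43 for Adamtsl5 and 0.388 for Adamts10 (edgeR). The abundant proteoglycan genes Bgn and Dcn had log2 fold changes of -0.01 and -0.02.

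Genes of enzymes that can cleave elastin had values on both sides of 0. Of 8 tested, 5 had a log2 fold change above 0 and 3 below. Mmp12, macrophage elastase, stood at 95, 149 and 243 CPM in the KO libraries, against 47.1, 108 and 81.3 CPM in the WT libraries, which overlapped, with a log2 fold change of 1.04 (standard error 0.36, adjusted p = 0.315 by edgeR). Mmp2, a gelatinase, stood at 744, 776 and 742 CPM in the KO libraries, against 896, 1021 and 1019 CPM in the WT libraries, with no overlap. Its log2 fold change was -0.38 (SE 0.13), as was that of Mmp14 (SE 0.13), the membrane protease that activates it, with an adjusted p of 0.306 for Mmp2 and 0.314 for Mmp14 (edgeR). Ctsl, a lysosomal cathepsin, had a log2 fold change of 0.55 with an SE of 0.20 and overlapping groups (adjusted p = 0.328 by edgeR). Of Ctsl exon bases 26.8% overlap other genes, so its count is uncertain. Macrophage markers summed to 2215 to 2773 CPM in KO and 2417 to 3517 CPM in WT, and their part in the protease values was not tested. Of 6 inhibitor genes, Timp4 had the largest log2 fold change (1.29, SE 0.52) at 4.99 ± 1.4 CPM over the KO libraries and 2.04 ± 1.69 CPM over the WT libraries (SD, n = 3 each). The Timp4 groups overlapped (adjusted p = 0.388 by edgeR). Timp3 stood at -0.04 (95% interval -0.37 to 0.29), with 21.3% of its exon bases shared with other genes.

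**Figure D5:**
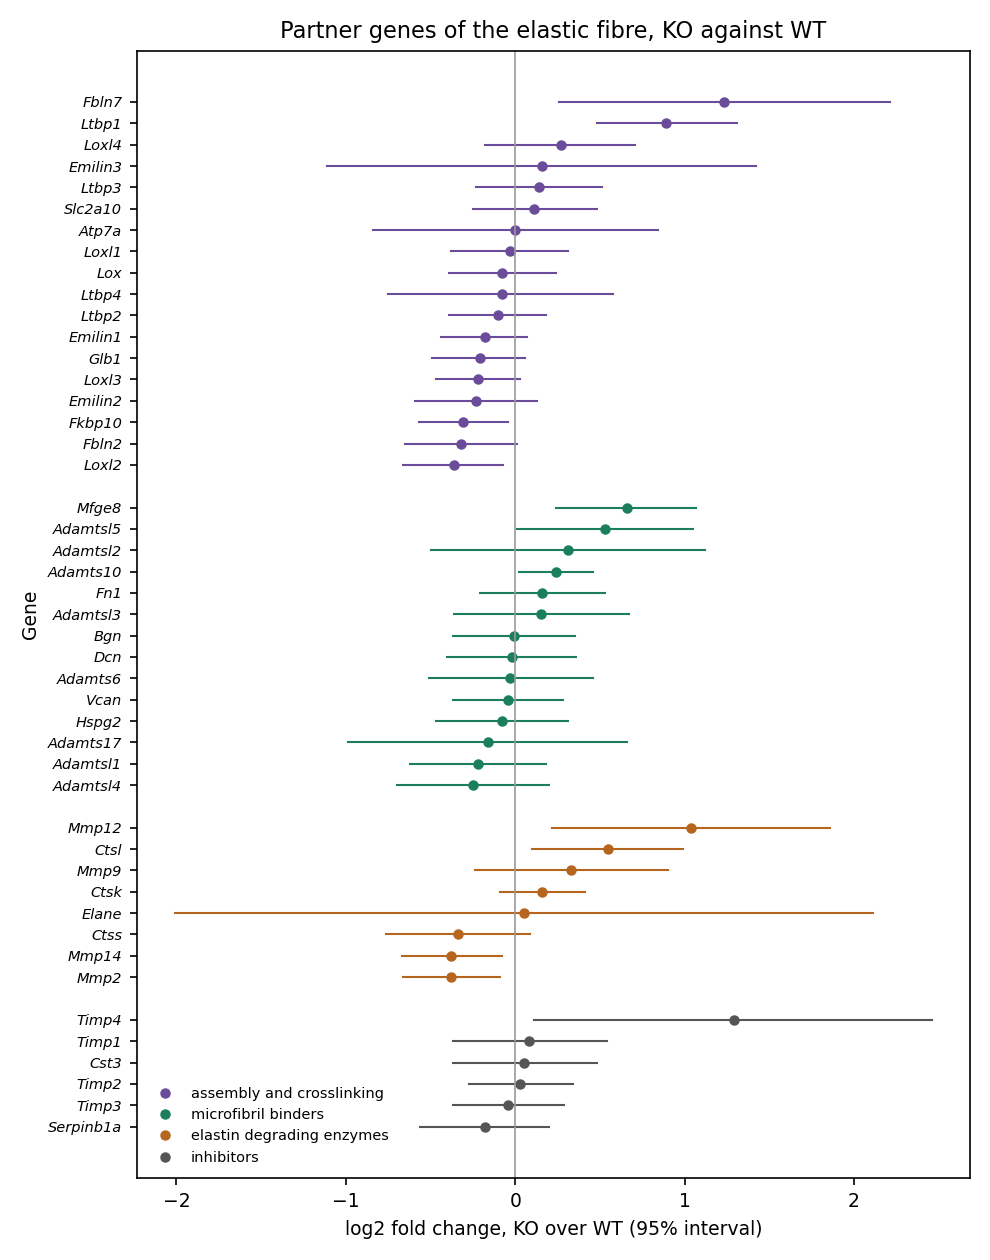
Log2 fold change of KO over WT with its 95% interval for the 46 tested partner genes, in 4 colours by list and ordered by value within each list. The intervals of Ltbp1, Fbln7, Mfge8, Adamtsl5, Adamts10, Mmp12, Ctsl and Timp4 lie above 0, those of Loxl2, Fkbp10, Mmp2 and Mmp14 lie below 0, and none of the 46 passed after adjustment over all genes.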

How the data were processed

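RNA from abdominal aorta was made into libraries after selection on poly-T beads, per the labels' protocols. The authors deposited raw whole-number read counts per gene, 1 column for each of the 6 libraries. The submitters' processing notes name HISAT2 2.0.5 as well as featureCounts 1.5.0-p3, with GRCm38 as genome build. Whether counting used strand, how reads matching more than 1 gene were handled and which annotation was used was not given in the sources used here.

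Positions, lengths and exon overlap of genes came from GENCODE mouse release 21 on GRCm38. The KO and WT counts were fitted by edgeR 4.0.16 under R 4.3.3 (filterByExpr, TMM, glmQLFit and glmQLFTest), with Benjamini-Hochberg adjustment over 16237 tested genes and a threshold of 0.05. CPM used TMM-scaled sizes of the tested genes, log2 CPM in the pattern search a prior count of 2, and the SE was the log2 fold change divided by the square root of F. The fit was also run on counts simulated with dispersions estimated from these libraries, and the outcome is not reported here. Pairs of libraries differed by a chi-square of 22.5 to 68 per degree of freedom over genes with at least 20 counts, so none was a repeat. Alternatives used other scalings and filters, DESeq2 1.42.0, limma-voom (limma 3.58.1), robust estimation, a replicate block and left-out libraries. Figures were drawn with matplotlib 3.10.9.

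The 10 genes, the partner lists, the markers and the rule for named genes were chosen with earlier results of these data known. The rule took the 10 genes, partners with an unadjusted p under 0.05 and the 5 genes nearest in pattern to Eln and to Fbn1. Partners named beyond it (Lox, Loxl1, Loxl3, Loxl4, Fbln2, Bgn, Dcn and Timp3) were chosen after their values were seen.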

Additional observations from a re-analysis of the deposited data

How the results depend on the processing

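The 95% intervals rest on 3 libraries per genotype, and each of the 10 genes had at least 542 counts in every library. The Eln log2 fold change was above 0 in all 16 alternatives, at 0.90 to 1.44. With no filter on low counts it was 1.20 with an adjusted p of 0.000472 (edgeR) and with DESeq2 1.20 with 8.2e-05, and in the other 14 the adjusted p was 0.111 to 0.313. Of the 10 genes, those called numbered 1 with no filter and with DESeq2, that being Eln, and 0 in the other settings. Partners called numbered 4 with no filter and 3 with DESeq2, and 0 in the other settings. Beside these, 644 of 29498 tested genes passed with no filter and 2.89% with DESeq2. All genes called numbered 2, against 644 with no filter, 451 with DESeq2, 0 with a filter at 1 CPM, with limma-voom and with the replicate block, and 1 with robust estimation. With 1 library left out they numbered 0 to 155, the highest without WT replicate 3. Without KO replicate 3 and WT replicate 3 together, an alternative chosen after seeing the data, they numbered 206, and Eln stood at 1.16 (adjusted p = 0.244, edgeR). The cause of these differences was not tested.

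The sign turned for 3 of the 10 genes with libraries left out. With 1 library left out, Fbn1 ranged over -0.21 to 0.03 (0.03 without WT replicate 1), Mfap5 over -0.09 to 0.22 (-0.09 without KO replicate 1) and Efemp1 over -0.25 to 0.06 (0.03 without KO replicate 3, 0.06 without WT replicate 3). Without KO replicate 3 and WT replicate 3 together, Efemp1 stood at 0.19 and Mfap5 at 0.23. The other 7 genes kept their direction in all 16 alternatives. The median log2 fold change of all genes was 0.006 with TMM and at most 0.040 under the other scalings. Same-numbered KO and WT libraries had correlations of -0.101, -0.0622 and -0.12 between their deviations, none above the 0.1 set as a sign of pairing. The deviations within a genotype sum to 0 by construction, so these values cannot exclude a pairing. With the replicate block Eln stood at 1.15 (SE 0.29, adjusted p = 0.29, edgeR).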
